A study of Mus musculus with 8 samples.

Results

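The 8 genes described here are known for their expression in basophils and mast cells: Hdc, Mcpt8, Fcer1a, Ms4a2, Cpa3, Gata2, Cd200r3 and Prss34. They were taken by symbol from a table of 24062 mouse genes, in which all 8 were found. They were followed in 8 RNA-seq libraries of bone marrow myeloid cultures from 2 floxed mouse lines, with 2 libraries in each of 4 groups. Marrow cells of C57BL/6 mice aged 2 months were passed through a 40 µm strainer and kept for 3 days with M-CSF at 40 ng/mL, a factor for the monocyte and macrophage lineage, to give what the study called immature myeloid cells. PARP1 WT came from PARP1 flox/flox mice without Cre and PARP1CKO from PARP1 flox/flox mice with lysozyme-Cre. PARP2 WT came from PARP2 flox/flox mice without Cre and PARP2CKO from PARP2 flox/flox mice with lysozyme-Cre. The WT groups therefore carry floxed alleles too. Lysozyme-Cre acts in the myeloid lineage, and the cultures were not sorted, so cells outside that lineage could remain with an intact allele. The 2 lines are separate colonies, so line, colony, culture and library preparation cannot be told apart. The libraries are described as biological duplicates, and nothing says that they came from separate cultures or animals, so p-values measure only the spread between these samples.

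Basophils and mast cells are granulocytes that carry the high-affinity IgE receptor and release histamine and proteases from their granules when that receptor is crosslinked by antigen. Both arise from bone marrow progenitors under GATA2, and basophils expand under IL-3 and TSLP through STAT5. Basophils leave the marrow as mature cells, while mast cells mature in tissues and are rare in marrow. M-CSF is not a growth factor of either. Within the 8 genes, Hdc encodes histidine decarboxylase, the enzyme that makes histamine. Mcpt8 and Prss34 encode serine proteases of basophil granules, also known as mMCP-8 and mMCP-11, and Cpa3 encodes carboxypeptidase A3, a granule protease of mast cells that basophils also make. Fcer1a and Ms4a2 encode the IgE-binding alpha chain and the beta chain of the receptor. Gata2 encodes the transcription factor, and Cd200r3 encodes an activating receptor of the CD200 receptor family on both cell types.

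The genes lie on 8 chromosomes of mm10. Hdc spans chr2:126593667-126619299 on the minus strand, Cpa3 chr3:20215620-20242181 on the minus strand, Prss34 chr17:25298394-25300165 on the plus strand, Ms4a2 chr19:11615523-11623719 on the minus strand and Fcer1a chr1:173221284-173227214 on the minus strand. Mcpt8 spans chr14:56082166-56085273 on the minus strand, Gata2 chr6:88193891-88207032 on the plus strand and Cd200r3 chr16:44943678-44981380 on the plus strand. Since Gata2 is itself one of the genes, their promoters were searched for short GATA motifs. The RefSeq promoter table for GRCm38.p6 gave 300 bases for each start, from 250 before it to 50 after it, and held 9 promoters for the 8 genes, 2 of them for Gata2. One of the motifs AGATAA and AGATAG, or one of TGATAA and TGATAG, was found on either strand in 6 of these promoters, those of Hdc, Cpa3, Prss34, Ms4a2, Fcer1a and Cd200r3, and was found in neither promoter of Gata2 nor in that of Mcpt8. Of all 32851 promoters of that length, 29.8% held at least 1 such match. The STAT5 motif TTCNNNGAA, searched on both strands, was in none of the 9 promoters and in 8.30% of all promoters. A match is a string of letters and says nothing of binding. The promoters of Hdc, of the pair with the most similar levels and of both receptor chains are shown 5′ to 3′ on the strand of the gene, with the matches in capitals. They cover chr2:126618629-126618928, chr3:20242132-20242431, chr17:25298144-25298443, chr19:11623670-11623969 and chr1:173227180-173227479 in the order given. A match that reads TTATCT is AGATAA on the other strand.
Hdc: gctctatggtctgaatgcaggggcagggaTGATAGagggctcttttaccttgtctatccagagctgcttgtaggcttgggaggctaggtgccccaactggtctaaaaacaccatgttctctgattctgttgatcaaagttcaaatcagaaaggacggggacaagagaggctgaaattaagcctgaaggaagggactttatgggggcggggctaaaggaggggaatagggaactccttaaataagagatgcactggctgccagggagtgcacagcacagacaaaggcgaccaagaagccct
Cpa3: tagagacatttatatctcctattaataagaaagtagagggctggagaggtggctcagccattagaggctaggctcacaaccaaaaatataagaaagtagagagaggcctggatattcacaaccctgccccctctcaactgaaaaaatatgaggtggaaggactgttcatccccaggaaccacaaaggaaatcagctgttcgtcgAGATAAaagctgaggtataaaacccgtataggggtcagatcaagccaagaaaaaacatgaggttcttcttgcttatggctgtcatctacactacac
Prss34: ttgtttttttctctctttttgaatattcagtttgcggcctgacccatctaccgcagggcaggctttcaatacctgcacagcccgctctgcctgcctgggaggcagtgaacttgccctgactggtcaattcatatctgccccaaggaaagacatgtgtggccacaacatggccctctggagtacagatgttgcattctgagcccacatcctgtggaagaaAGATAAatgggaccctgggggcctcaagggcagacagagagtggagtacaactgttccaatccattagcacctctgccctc
Ms4a2: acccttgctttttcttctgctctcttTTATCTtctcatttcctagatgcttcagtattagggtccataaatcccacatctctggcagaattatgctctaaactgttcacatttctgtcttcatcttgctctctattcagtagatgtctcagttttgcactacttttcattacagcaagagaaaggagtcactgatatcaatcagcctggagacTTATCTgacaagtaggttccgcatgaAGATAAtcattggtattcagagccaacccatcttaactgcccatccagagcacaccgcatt
Fcer1a: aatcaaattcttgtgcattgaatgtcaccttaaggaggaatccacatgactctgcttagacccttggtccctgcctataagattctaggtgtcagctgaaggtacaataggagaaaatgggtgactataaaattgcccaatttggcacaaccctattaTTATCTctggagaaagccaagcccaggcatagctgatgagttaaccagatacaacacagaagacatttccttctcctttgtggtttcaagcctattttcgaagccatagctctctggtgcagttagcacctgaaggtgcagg
The match of Cpa3 began 46 bases before the start and that of Prss34 began 31 bases before it. Ms4a2 held 3 matches, whose first bases lay 224, 37 and 11 bases before the start. Fcer1a and Hdc held 1 match each, at 92 and 221 bases before the start. The Cd200r3 promoter, not shown, also held 3 matches, at 115, 39 and 33 bases before the start.

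Library totals ran from 37852450 to 61845125 counts, and the 8 genes together took 0.00199% of all counts. Levels are given in CPM, counts scaled to library size after TMM normalisation, with replicate 1 before replicate 2. In PARP1CKO, Parp1 had 63.2 and 59.1 CPM against 202 and 211 CPM in PARP1 WT, a log2 fold change of -1.75 (adjusted p = 0.0134, edgeR's quasi-likelihood test). Parp2 had 25.7 and 25.6 CPM in PARP2CKO against 48.2 and 48.3 CPM in PARP2 WT, a log2 fold change of -0.91 (adjusted p = 0.000139, same test). Within PARP2 WT, Parp1 itself was at 251 CPM in replicate 1 and at 155 CPM in replicate 2, so these 2 libraries differ in more than the genes described here. PARP2CKO had 263 and 264 CPM of Parp1, so for this gene replicate 2 was the PARP2 WT library apart from its line.

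Per kilobase of exon, the granule proteases were the highest of the 8 genes and the IgE-binding chain and Cd200r3 the lowest. Over the 8 libraries, Prss34 was at 2.23 to 6.29 CPM per kb, Mcpt8 at 1.60 to 4.14 and Cpa3 at 0.884 to 3.17. Hdc followed at 0.126 to 1.74 CPM per kb, then Gata2 at 0.317 to 0.574 and Ms4a2 at 0.244 to 0.692. Fcer1a was at 0.0830 to 0.363 CPM per kb and Cd200r3 at 0.0173 to 0.0950. Each gene in this order was above the next in 8 of 8 libraries, except that Hdc was above Gata2 in 5 of 8 and Gata2 above Ms4a2 in 4 of 8, so that the places of these 3 genes are not fixed. Mcpt8 and Prss34 sit in clusters of related protease genes, and Mcpt8 and Cpa3 each overlap an annotated microRNA gene, so their counts depend on how shared reads were assigned.

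Of 13 other mast cell genes, the proteases and Mrgprb2 were at or near 0. Mcpt4, Tpsab1 and Mrgprb2, which encode a chymase, a tryptase and a receptor of connective tissue mast cells, had no count in any library, which allows up to 0.0485 to 0.0793 CPM by library (3 counts of the unscaled total, counting error only). Mcpt1, Mcpt2, Mcpt9, Cma1 and Tpsb2 had 0 or 1 count in each library, and Tpsg1 had 0 to 2. The other 4 genes, which other marrow or myeloid cells also express, were measured well above 0, with means of 244 CPM for Hpgds, 53.2 for Mitf, 23.4 for Kit and 4.37 for Slc18a2. The cytokine genes of activated basophils were near 0 as well, with no count for Il13 and 0 to 3 counts for Il4. The libraries thus held counts of both basophil proteases, while the mast cell proteases of that list were at or near 0.

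The granule proteases were all lower in the PARP2 line. Mcpt8 was at 4.01 and 3.18 CPM in PARP1 WT against 2.97 and 4.14 CPM in PARP1CKO, while PARP2 WT had 2.04 and 2.29 CPM and PARP2CKO 1.59 and 2.11 CPM. Prss34 was at 7.68 and 6.37 CPM in PARP1 WT against 5.21 and 7.19 CPM in PARP1CKO, while PARP2 WT had 4.03 and 4.79 CPM and PARP2CKO 2.72 and 3.62 CPM. Cpa3 was at 4.81 and 4.19 CPM in PARP1 WT against 2.85 and 4.31 CPM in PARP1CKO, while PARP2 WT had 2.14 and 2.46 CPM and PARP2CKO 1.34 and 1.95 CPM. For each protease, every library of the PARP1 line was above every library of the PARP2 line, as for 9.93% of all genes tested. Within the PARP1 line the WT and PARP1CKO libraries overlapped for all 3 genes. Within the PARP2 line, both PARP2CKO libraries were below both PARP2 WT libraries for Cpa3 and Prss34, while Mcpt8 overlapped. This order of the PARP2 groups held for 18.8% of all genes tested.

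The receptor chains were lower in level and showed the same order of lines. Ms4a2 was at 1.32 and 1.45 CPM in PARP1 WT against 1.23 and 1.95 CPM in PARP1CKO, while PARP2 WT had 0.726 and 0.961 CPM and PARP2CKO 0.687 and 0.932 CPM. Fcer1a was at 0.310 and 0.363 CPM in PARP1 WT against 0.258 and 0.265 CPM in PARP1CKO, while PARP2 WT had 0.121 and 0.135 CPM and PARP2CKO 0.0838 and 0.0828 CPM, which is 12 to 18 counts in a library of the PARP1 line and 4 to 7 in a library of the PARP2 line. The alpha chain was below its WT libraries in both conditional knockouts, and the beta chain overlapped in both. Of all genes tested, 20.2% were below in this way in PARP1CKO and 18.8% in PARP2CKO. Fcer1g, which encodes the gamma chain that the receptor shares with other Fc receptors of myeloid cells, had a mean of 835 CPM.

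Gata2 and Cd200r3 repeated the separation by line, which 9.93% of all genes tested showed in this direction. Gata2 was at 2.43 and 2.96 CPM in PARP1 WT against 2.28 and 3.10 CPM in PARP1CKO, while PARP2 WT had 2.07 and 2.02 CPM and PARP2CKO 1.71 and 1.78 CPM. The lowest value of the PARP1 line was 2.28 CPM and the highest of the PARP2 line was 2.07 CPM. Cd200r3 was at 0.569 and 0.564 CPM in PARP1 WT against 0.535 and 0.553 CPM in PARP1CKO, while PARP2 WT had 0.225 and 0.365 CPM and PARP2CKO 0.318 and 0.104 CPM. Its 4 libraries of the PARP1 line were close together, and those of the PARP2 line ranged from 5 to 19 counts. In such bulk libraries, fewer cells of a type and less RNA per cell cannot be told apart.

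**Figure D1:**
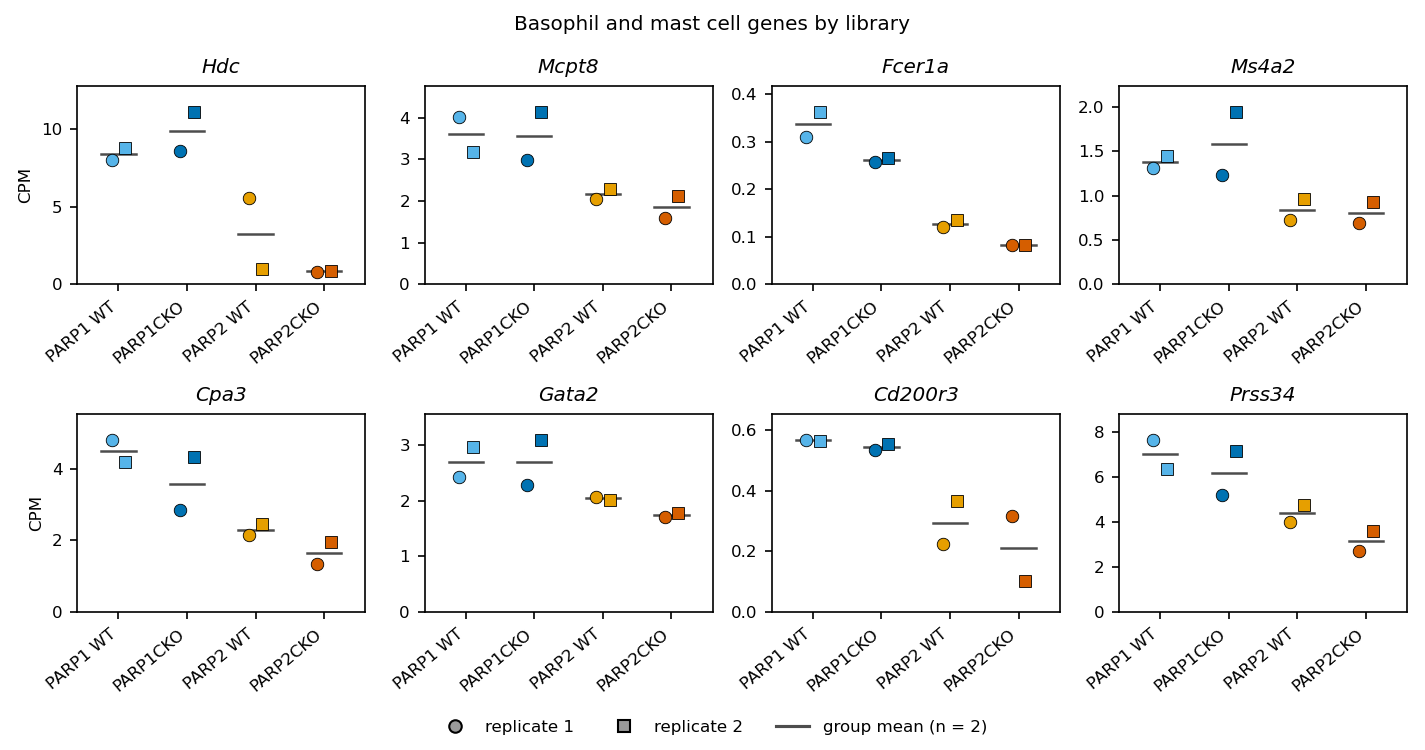
Level of each of the 8 genes in CPM (linear axis from 0) by group, with circles for replicate 1, squares for replicate 2 and a bar at the mean of the 2 libraries. All 4 libraries of the PARP1 line lie above all 4 of the PARP2 line in every panel, as for 9.93% of all genes tested. Hdc alone shows 1 PARP2 WT library, at 5.53 CPM, far above the other at 0.980 CPM.

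Hdc stood apart from the other 7 genes. It was at 7.99 and 8.77 CPM in PARP1 WT against 8.60 and 11.1 CPM in PARP1CKO, while PARP2 WT had 5.53 and 0.980 CPM and PARP2CKO 0.805 and 0.870 CPM, from 309, 435, 434, 502, 320, 51, 48 and 42 counts. PARP2 WT replicate 1 thus had 5.64 times the level of replicate 2 and 60.7% of the mean of the PARP1 line. The other 3 libraries of the PARP2 line were at 0.885 ± 0.0888 CPM (SD, n = 3), and the mean of the PARP1 line was 10.3 times that. No other gene of the 8 showed this step: the ratio of PARP2 WT replicate 1 to replicate 2 was between 0.616 for Cd200r3 and 1.03 for Gata2. Some markers of other cells were also higher in that library than in PARP2 WT replicate 2. The 7 eosinophil genes measured summed to 22.6 CPM in PARP2 WT replicate 1 against 13.5 CPM in replicate 2, with Prg2, a granule protein, at 14.6 against 8.65 CPM and Epx, eosinophil peroxidase, at 1.83 against 0.577 CPM. The 10 megakaryocyte genes summed to 523 against 390 CPM, with Gp9 at 10.3 against 6.09 CPM. Gata1, a factor of erythroid, megakaryocyte and eosinophil cells that is also listed below with the partners of GATA2 and fate factors, was at 6.07 against 3.73 CPM. Sums of the erythroid, progenitor and neutrophil genes were higher as well. Those of the monocyte and macrophage genes were lower, at 13619 against 14910 CPM. Lymphoid genes (12.9 against 12.1 CPM) and those of the immature myeloid cell gate (1415 against 1411 CPM) were close. In PARP2CKO the eosinophil genes summed to 13.6 and 14.1 CPM and the megakaryocyte genes to 460 and 425 CPM. The part of these cells in the Hdc level was not tested.

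The summed level of the other 7 genes put this in one measure. It was at 21.1 and 19.1 CPM in PARP1 WT against 15.3 and 21.5 CPM in PARP1CKO, while PARP2 WT had 11.4 and 13.0 CPM and PARP2CKO 8.45 and 10.6 CPM. Hdc made up 27.4% to 35.9% of the counts of the 8 genes in the PARP1 line and 32.8% in PARP2 WT replicate 1, but 7.01% in the second PARP2 WT library and 8.70% and 7.59% in the PARP2CKO libraries. So the share of Hdc in PARP2 WT replicate 1 was within the range of the PARP1 line, while the other 7 genes of that library were at the level of the PARP2 line. Among the other 7 genes, some shares were close between the lines and others were not. Mcpt8 made up 18.6% ± 1.27 (SD, n = 4) of their summed counts in the PARP1 line and 18.6% ± 1.06 in the PARP2 line. For Prss34 these shares were 34.3% ± 1.41 and 34.7% ± 1.97, and for Ms4a2 7.73% ± 1.16 and 7.68% ± 1.04. Gata2, which has other sources in marrow such as progenitors and megakaryocytes, went from 14.1% ± 1.77 to 17.7% ± 2.03, and Cpa3 from 20.8% ± 1.88 to 18.0% ± 1.45. Fcer1a went from 1.57% ± 0.285 to 0.969% ± 0.127, with no overlap between the lines, and Cd200r3 from 2.93% ± 0.407 to 2.38% ± 1.19.

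**Figure D2:**
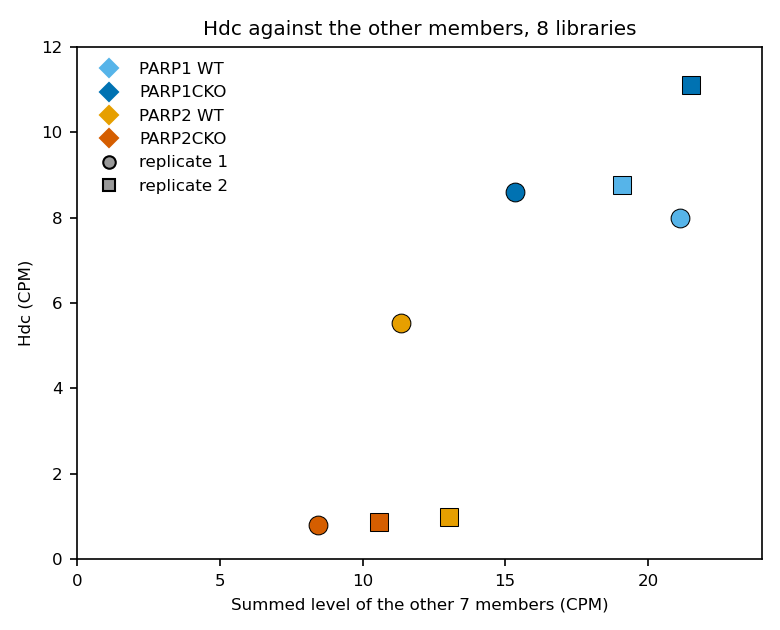
Hdc level (CPM, vertical) against the summed level of the other 7 genes (CPM, horizontal), 1 point for each of the 8 libraries, coloured by group and shaped by replicate. The PARP1 line lies at the upper right, 3 libraries of the PARP2 line lie under 1 CPM of Hdc, and PARP2 WT replicate 1 lies at 5.53 CPM of Hdc with 11.4 CPM of the others.

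The 3 genes whose levels were most like that of Hdc lay on the same chromosome, chromosome 2. Over the 8 libraries, the log2 CPM of Hdc had a Pearson r of 0.996 with Spint1, a serine protease inhibitor of membranes, 0.984 with Spg11 and 0.982 with Cdan1. These values are a description, since the 8 points fall into the 2 lines and share their depth. The genes were picked for their likeness to Hdc, so a shared high PARP2 WT replicate 1 follows from that choice. Spint1 was at 5.04 and 5.38 CPM in PARP1 WT against 4.00 and 5.91 CPM in PARP1CKO, while PARP2 WT had 2.97 and 0.173 CPM and PARP2CKO 0.184 and 0.166 CPM. It therefore showed the same high PARP2 WT replicate 1 as Hdc, and Spg11 and Cdan1 showed it at a smaller size, with 84.7 against 78.6 CPM and 24.8 against 21.3 CPM in PARP2 WT. Spint1, Cdan1 and Spg11 start 7.36, 5.88 and 4.54 Mb from the start coordinate of Hdc. Of the 20 genes most like Hdc, 9 lie on chromosome 2, a chromosome that holds 7.89% of the 12552 tested genes with a position. Besides these 3 they were Ino80, Vps39, Eid1, Usp8, Ciao1 and Slc35c1, of which Usp8 starts 0.114 Mb away, Ciao1 0.647 Mb, and Slc35c1 34.1 Mb. The count of 9 was chosen after the values were seen and was not tested. The rest of the 20 lie on other chromosomes, led by Map4k1 of chromosome 7 (r = 0.978) and Cd7 of chromosome 11 (0.975). For the other 7 genes, between 0 and 4 of the 20 most similar genes lay on the chromosome of the gene itself. The highest was 4 for Fcer1a on chromosome 1, which holds 5.87% of the tested genes with a position.

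**Figure D3:**
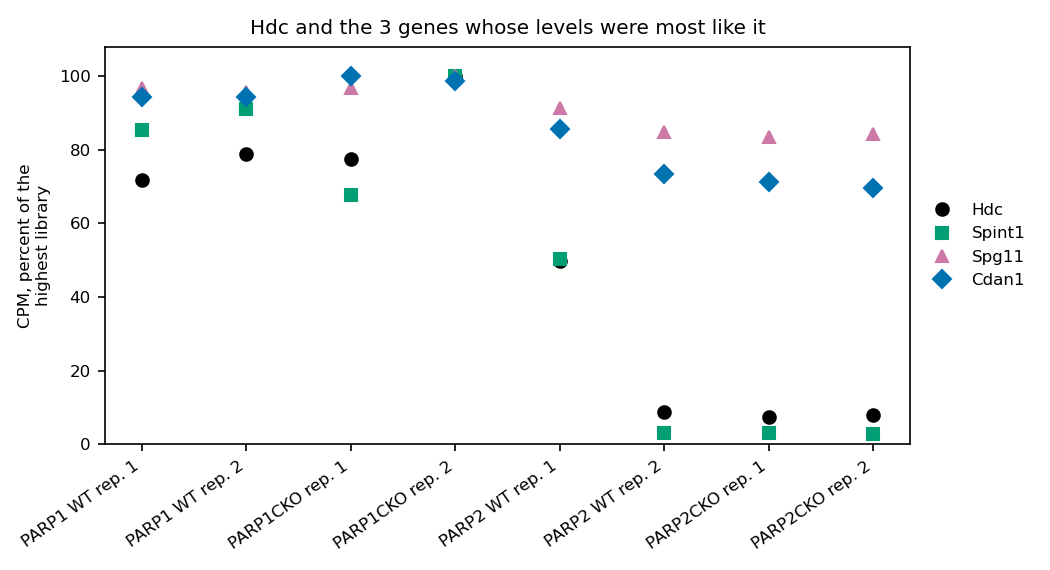
Level of Hdc, Spint1, Spg11 and Cdan1 in each library (horizontal), as a percent of the highest library of that gene (vertical, from 0). Hdc and Spint1 share a point in PARP1CKO replicate 2 and are near 50% in PARP2 WT replicate 1 and under 10% in the other 3 libraries of the PARP2 line, while Spg11 and Cdan1 cover a narrower range, with the PARP1 line highest and PARP2 WT replicate 1 above the other 3 libraries of its line.

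Among the other genes, the levels of Cpa3 and Prss34 were the most alike of the 28 pairs within the 8 genes (r = 0.993), and each was the gene most like the other among all those tested. The 21 pairs without Hdc ranged from 0.659 to 0.993 with a median of 0.889, and the 7 pairs with Hdc from 0.683 to 0.867 with a median of 0.807. Outside the 8 genes, Mcpt8 was most like Mndal (r = 0.997), Trim30a (0.991) and Samd9l (0.990). Fcer1a was most like Il2rg (0.987), Ttc21b (0.984) and Phf11a (0.982), and Ms4a2 was most like Dcp2 (0.985), Arpc5l (0.980) and Gabbr1 (0.978). Next after Prss34, Cpa3 was most like Ccdc82 (0.991) and Ccdc127 (0.987), and next after Cpa3, Prss34 was most like Ugcg (0.990) and Ccdc127 (0.989). Gata2 was most like Usp32 (0.986), Ceacam1 (0.980) and Gabpb1 (0.971), and Cd200r3 was most like Srd5a1 (0.965), Ltb (0.964) and Cxx1b (0.949).

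The first question of the design was what loss of PARP1 in the myeloid lineage does to these genes. None of the 8 was called between PARP1CKO and PARP1 WT by edgeR's quasi-likelihood test, its p adjusted after Benjamini and Hochberg over 13197 genes, where 0.106% of all genes were called. None reached an unadjusted p of 0.05 either, which 11.3% of all genes did, and DESeq2 and edgeR's likelihood-ratio test also called none. The log2 fold changes ran from -0.37 for Fcer1a (SE 0.326, adjusted p = 0.722, edgeR) to 0.23 for Hdc (SE 0.478, adjusted p = 0.886, edgeR), with a median of -0.04 against 0.01 over all genes. Both PARP1CKO libraries were below both PARP1 WT libraries for 2 of the 8, Fcer1a and Cd200r3, as for 20.2% of all genes. Leaving out each library in turn turned the direction of Mcpt8, Ms4a2, Gata2 and Prss34, so no direction is given for them. The result is a failure to detect a change at 2 libraries a group and does not show that the levels were alike.

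The second question was what loss of PARP2 does. None of the 8 was called between PARP2CKO and PARP2 WT by the same test, where 0.053% of all genes were called, and DESeq2 and the likelihood-ratio test called none. Hdc and Prss34 reached an unadjusted p of 0.05, as did 4.83% of all genes. All 8 log2 fold changes were below 0, with a median of -0.44 against -0.00 over all genes, and both PARP2CKO libraries were below both PARP2 WT libraries for Hdc, Fcer1a, Cpa3, Gata2 and Prss34, which held for 18.8% of all genes. The log2 fold change of Prss34 was -0.48 (SE 0.202, adjusted p = 0.954, edgeR's quasi-likelihood test), that of Cpa3 was -0.50 (SE 0.247, adjusted p = 0.954, same test) and that of Fcer1a was -0.60 (SE 0.464, adjusted p = 0.967, same test). With single PARP2CKO libraries left out, Cpa3 ranged from -0.78 (without replicate 2) to -0.24 (without replicate 1), Prss34 from -0.70 to -0.28 and Mcpt8 from -0.44 to -0.03 in the same order. With all libraries, Mcpt8 and Gata2 were each at -0.23 and Cd200r3 at -0.41, and Ms4a2 was at -0.07. Leaving out single libraries turned the direction of Ms4a2 and Cd200r3. Hdc had a log2 fold change of -1.98 (SE 0.657, adjusted p = 0.888, edgeR's quasi-likelihood test), which rested on 1 library, PARP2 WT replicate 1. Eosinophil and megakaryocyte genes were higher in that library than in PARP2 WT replicate 2. Spint1, Spg11 and Cdan1 of chromosome 2 were nearer there to the PARP1 line than to the rest of the PARP2 line. These genes were picked for their likeness to Hdc over the same libraries, so their pattern is no separate evidence. The strain background of that library at this region of chromosome 2 was not tested. Without PARP2 WT replicate 1 the log2 fold change of Hdc was -0.23, and without PARP2 WT replicate 2 it was -2.72. Hdc is also among the genes that the study picked from these samples for its PARP2 heat map, so its direction here is not independent evidence.

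The difference between the effects of the 2 deletions was tested as well, and no gene of the 8 was called (edgeR's quasi-likelihood test, 0.0152% of all genes called). Hdc alone reached an unadjusted p of 0.05, as 7.69% of all genes did, and DESeq2 and the likelihood-ratio test called none of the 8. The difference was -2.21 for Hdc on the log2 scale (SE 0.817, adjusted p = 0.609, same test), which is the PARP2CKO effect minus the PARP1CKO effect. Without PARP2 WT replicate 1 it was -0.46 (adjusted p = 0.847) and without PARP2 WT replicate 2 it was -2.95 (adjusted p = 0.00476, same test), so this value rests on the same pair of libraries. The other 7 differences were between -0.35 and -0.17, with adjusted p from 0.817 to 0.951 (edgeR), and leaving out single libraries turned those of Mcpt8, Ms4a2, Cpa3, Gata2 and Cd200r3.

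The levels by library separated the lines for all 8 genes, and 2 comparisons gave the size of that separation. In the groups without Cre, PARP2 WT against PARP1 WT, all 8 genes were lower in both PARP2 WT libraries, as were 25.2% of all genes, and 0 of the 8 were called by edgeR's quasi-likelihood test, where 3.16% of all genes were called. Of the 8, 6 reached an unadjusted p of 0.05, against 18.9% of all genes. DESeq2 called 2 of them, Cpa3 and Prss34, and the likelihood-ratio test called 4, those and Mcpt8 and Fcer1a. The 3.16% is the share of the quasi-likelihood test alone. The likelihood-ratio test also called more genes over the whole table, and the share for DESeq2 is not given. Fcer1a reached the minimum level for testing in the PARP1 line alone, so its values in this comparison are a description. The log2 fold changes ran from -1.39 for Fcer1a (adjusted p = 0.0842, edgeR's quasi-likelihood test) to -0.40 for Gata2 (adjusted p = 0.282, same test), with a median of -0.84. Cpa3 came nearest to the threshold, at -0.96 (SE 0.229, adjusted p = 0.0601, same test), and passed it with either PARP1CKO library left out. Hdc was at -1.34 (SE 0.513, adjusted p = 0.207, same test) and ranged from -3.09 without PARP2 WT replicate 1 (adjusted p = 0.00149) to -0.60 without PARP2 WT replicate 2 (adjusted p = 0.191, same test). This comparison shares the PARP2 WT libraries with that of PARP2CKO, where they stand on the other side.

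With both groups of each line averaged, a comparison added after the levels by library had been seen, all 8 genes were lower in the PARP2 line and all 8 were called (edgeR's quasi-likelihood test, where 16.4% of all genes were called and 8.04% were called as lower). All 4 libraries of the PARP2 line were below all 4 of the PARP1 line for each of the 8 genes, as for 9.93% of all genes. Fcer1a was kept in the test by the PARP1 line alone, with 4 libraries of that line and 0 of the PARP2 line at the minimum of 0.201 CPM, so it had to differ, and Cd200r3 had 4 and 3 libraries there. The other 6 genes had 4 and 4. Hdc fell from 9.11 ± 1.37 CPM (SD, n = 4) in the PARP1 line to 2.05 ± 2.33 in the PARP2 line, a log2 fold change of -2.45 (SE 0.402, adjusted p = 0.00508, edgeR). It was -3.32 without PARP2 WT replicate 1 and -2.08 without PARP2 WT replicate 2. Cpa3 fell from 4.04 ± 0.835 to 1.97 ± 0.471 CPM, a log2 fold change of -1.05 (SE 0.166, adjusted p = 0.00437, edgeR). For the basophil proteases the fall was nearly the same, with -0.82 for Prss34 (SE 0.139, adjusted p = 0.00569, edgeR) and -0.84 for Mcpt8 (SE 0.152, adjusted p = 0.00778, edgeR). The receptor chains were at -1.51 for Fcer1a (SE 0.274, adjusted p = 0.00779, edgeR) and -0.85 for Ms4a2 (SE 0.200, adjusted p = 0.0214, edgeR). Gata2 changed least, at -0.51 (SE 0.132, adjusted p = 0.0304, edgeR), and Cd200r3 was at -1.12 (SE 0.303, adjusted p = 0.0367, edgeR).

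Hdc, Mcpt8, Cpa3 and Prss34 stayed past the threshold with each of the 8 libraries left out in turn. Fcer1a did too, but it was tested through the PARP1 line alone. None of this is support, as the comparison was added after the levels by library had been seen. The share of all genes that stayed past the threshold in these fits is not given. Cd200r3 passed in 2 of these 8 fits, without PARP2 WT replicate 2 or PARP2CKO replicate 1. Gata2 passed in 2, without PARP1 WT replicate 1 or PARP1CKO replicate 1. Ms4a2 passed in 3, without PARP1CKO replicate 1, PARP2 WT replicate 2 or PARP2CKO replicate 2. DESeq2 called 5 of the 8, with adjusted p of 0.0993 for Fcer1a, 0.0999 for Cd200r3 and 0.0659 for Gata2. The share of all genes that DESeq2 called between the lines is not given, and the 16.4% is of edgeR's quasi-likelihood test alone.

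**Figure D4:**
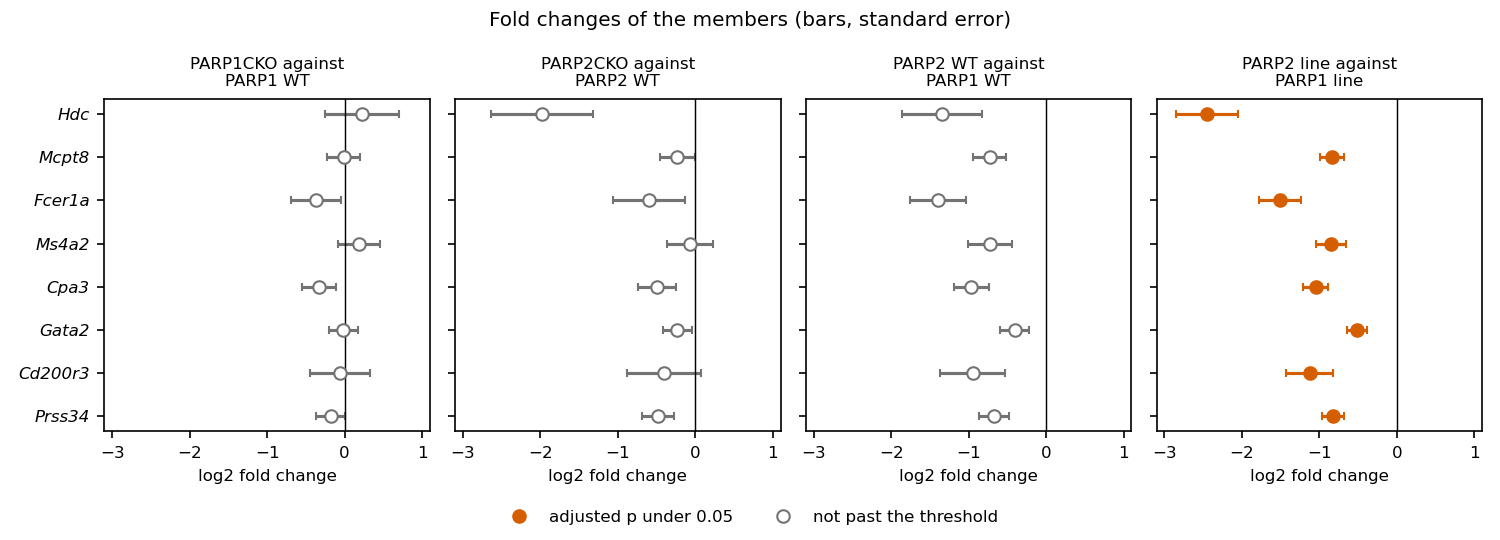
Log2 fold change of each of the 8 genes (points) with its standard error (bars) in 4 comparisons, filled where the adjusted p of edgeR's quasi-likelihood test was under 0.05. Both comparisons of a conditional knockout with its WT group and that of the WT groups hold open points alone, and the comparison of the lines holds 8 filled points below 0.

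Other genes of these cells did not all move with the 8. The lists that follow were drawn up with earlier results of these data known, and none of their genes was called in either conditional knockout or in the difference between them. In PARP2 WT against PARP1 WT, edgeR's quasi-likelihood test called 0 of the 8 genes and 3.16% of all genes. Of the lists it called Kit, Tal1, Id2, Hba-a1, Hba-a2, Retnlg, Mmp9, Cd79a, Cd79b and Ms4a1 as lower in PARP2 WT. Il3ra, Cebpa, Elane, Prtn3, Lyz2 and Mertk were called as higher, and no other listed gene was called there. Between the lines, each count of calls stands against 16.4% of all genes. Of 13 further mast cell genes, 4 were tested between the lines. Kit, the stem cell factor receptor of mast cells and progenitors, fell from 28.1 to 31.7 CPM in the PARP1 line to 14.4 to 18.4 CPM in the PARP2 line (log2 fold change -0.83, adjusted p = 9.79e-05, edgeR), and Mitf rose (0.17, adjusted p = 0.0126). Slc18a2, the vesicular transporter that loads histamine into granules, was at -0.32 (adjusted p = 0.169), and Hpgds, which makes prostaglandin D2, was at 0.01 (adjusted p = 0.866). Of 12 further basophil genes, 8 were tested: Cyp11a1 fell by 1.09 on the log2 scale (adjusted p = 0.0233, edgeR) and Il18rap by 0.23 (adjusted p = 0.0297), Il3ra, the IL-3 receptor alpha chain, rose by 0.33 (adjusted p = 0.00933), and 5 were not called (3 of 8 called). The most abundant of them, the integrin gene Itgb7, had a mean of 78.7 CPM and a log2 fold change of -0.05 (adjusted p = 0.718, edgeR). The median of the list was -0.05, against -0.95 for the 8 genes and -0.00 over all genes.

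The signalling chain below the IgE receptor is also used by other myeloid cells. Of its 16 genes, Fcer1g, Fyn, Plcg2 and Orai1 fell and Syk rose between the lines, 5 called in all and 11 not, where 16.4% of all genes were called, with Fyn at -0.23 (adjusted p = 0.00860, edgeR) and Syk at 0.14 (adjusted p = 0.0141), and the median was -0.07. Lat2, an adaptor and the most abundant after Fcer1g, was at 0.01 (adjusted p = 0.930, edgeR). Of 7 genes that transport, break down or sense histamine, 4 were tested and none was called (edgeR), and among them Hnmt, the enzyme that methylates histamine, was at 0.08 (adjusted p = 0.499) and Hrh2, a histamine receptor, was at -0.33 (adjusted p = 0.0514). Of 13 genes of IL-3, GM-CSF, IL-5 and TSLP signalling, 10 were tested, with Il3ra and Csf2rb higher and Il5ra lower in the PARP2 line, 3 called of 10. Il5ra was at -1.62 (adjusted p = 0.0115, edgeR), from 0.302 to 0.553 CPM in the PARP1 line and 0.0577 to 0.173 CPM in the PARP2 line. It reached the minimum of 0.201 CPM in the PARP1 line alone, so it had to differ, and its call among the 3 is a description. The most abundant genes, Csf2rb and Csf2ra, were at 0.24 (adjusted p = 0.0400, edgeR) and 0.20 (adjusted p = 0.154, edgeR). Of 15 partners of GATA2 and fate factors, Cebpa, Mitf and Irf8 rose and Tal1, Nfil3 and Id2 fell, 6 called of 15, with Cebpa at 0.63 (adjusted p = 0.00112, edgeR) and Tal1 at -0.34 (adjusted p = 0.00191). The most abundant of these genes were Id2, at -0.17 (adjusted p = 0.0169, edgeR), and Spi1, at 0.08 (adjusted p = 0.238).

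Markers of other cells were also called between the lines, where 16.4% of all genes were called and 8.04% were called as lower. Of 10 lymphoid genes, 6 were tested and 3 fell, the B cell genes Cd79a, Cd79b and Ms4a1, and the list summed to 24.97 to 35.1 CPM in the PARP1 line and 9.57 to 12.9 in the PARP2 line. The globin genes Hba-a1, Hba-a2, Hbb-bs and Hbb-bt fell among 7 tested erythroid genes, whose list of 10 summed to 11.5 to 18.0 and 7.59 to 10.8 CPM. Hba-a1 and Hba-a2 had identical counts in every library. Hbb-bt, at 0.0414 to 0.0864 CPM in the PARP2 line, reached the minimum of 0.201 CPM in the PARP1 line alone. Its call is therefore a description. Prg2 and Il5ra fell among 7 eosinophil genes, but Il5ra was kept in the test by the PARP1 line alone, so its call is a description. These 7 genes summed to 18.8 to 25.5 CPM in the PARP1 line and to 22.6 CPM in PARP2 WT replicate 1. In the other 3 libraries of the PARP2 line they summed to 13.5 to 14.1 CPM. All 5 early neutrophil granule genes, Elane, Mpo, Prtn3, Ctsg and Ms4a3, rose, with sums of 263 to 311 CPM in the PARP1 line and 359 to 406 CPM in the PARP2 line. Retnlg, Cxcr2 and Mmp9 fell among 10 late neutrophil genes, and Mrc1, Lyz2, Fcgr1 and Mertk rose among 9 monocyte and macrophage genes, with summed levels of 2735 to 3455 against 2826 to 3495 CPM and 7331 to 10231 against 9843 to 14910 CPM. Kit and Sox4 fell among 10 progenitor genes and Vwf among 10 megakaryocyte genes, counts near those shares. None of the 4 genes of the immature myeloid cell gate in the table was called, and their sums were 1316 to 1427 and 1395 to 1456 CPM. The part of these cells in the levels of the 8 genes was not tested.

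**Figure D5:**
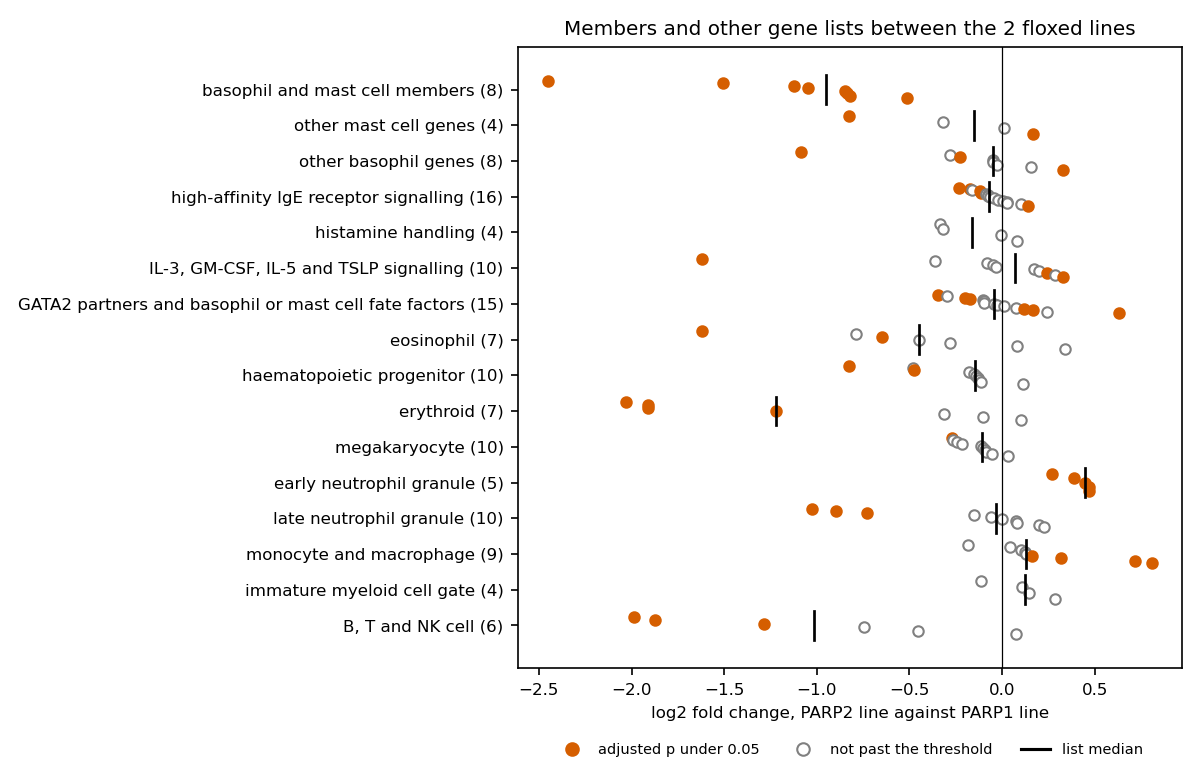
Log2 fold change of the PARP2 line against the PARP1 line (horizontal) for each tested gene of 16 lists (vertical, number tested in brackets), filled where the adjusted p of edgeR's quasi-likelihood test was under 0.05, with a bar at the list median. The 8 genes lie below 0 with a median of -0.95, and the other mast cell and basophil lists lie on both sides of 0.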

How the data were processed

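Raw counts per gene were deposited by the authors for 8 libraries (4 groups of 2, total RNA, stranded kit, single-end reads). The submitters' processing notes name TopHat2 2.0.12 on mm10, Picard 1.127, featureCounts of Subread, edgeR and FastQC 0.11.2. The annotation, strand setting and treatment of marked duplicates are not given in the sources used here. The counts were fitted with edgeR 4.0.16 (R 4.3.3) over the 8 libraries (one coefficient a group, filterByExpr, TMM, quasi-likelihood test), p-values being adjusted after Benjamini and Hochberg over 13197 genes and a threshold of 0.05; 6520 genes had no count. Library totals of 37852450 to 61845125 leave the genes with the fewest counts with wide counting error. Levels per kb used the exon union of GENCODE M21, and likeness used log2 CPM with a prior count of 2. Fits were tested on simulated data. Alternatives were DESeq2 1.42.0, other scalings, filters and tests, a replicate block and leaving out each library. Labels do not say that a replicate number marks a shared animal or day.

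All 8 members were named with every library, with Parp1 and Parp2, the 3 genes most like each member, and the calls of each marker list. For PARP2 WT against PARP1 WT the calls of the lists are given by name, without a count for each list. The planned examples of each list, its 2 most abundant genes and the most changed gene in each comparison, are named for the mast cell, basophil, receptor, histamine, cytokine and fate factor lists between the lines only, and for the lists of other cells only some of them are; the 6 chromosome 2 genes beyond these were named after their values were seen. One gene of the lymphoid list is not reported here. The members and lists were chosen with earlier results of these data known.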

Additional observations from a re-analysis of the deposited data

How the results depend on the processing

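The number of the 8 genes called stayed at 0 in PARP1CKO against PARP1 WT under all alternatives run, and at 0 in PARP2CKO against PARP2 WT and in the difference of effects except for a range of 0 to 1 when single libraries were left out. In PARP2 WT against PARP1 WT it was 0, but 2 by DESeq2, 1 with the libraries of these groups only, 4 by the likelihood-ratio test, 4 with no filter and 0 to 1 with a library left out. Between the lines it was 8, and 5 by DESeq2, 7 with a replicate block and 5 to 8 across all alternatives that tested all 8 genes, and 6 of 6 with a minimum of 1 CPM in 2 libraries. Genes called over the whole table, 14 for PARP1CKO, were 86 by DESeq2, 146 by the likelihood-ratio test, 101 with no filter and 1 to 34 with a library left out. For PARP2CKO they were 7, and 27, 39 and 26 in the same order, 11 with the replicate block and 4 to 19 with a library left out. For the difference they were 2, and 45, 72 and 61, 1 with the replicate block, 10 with the block crossed in both lines, an alternative chosen after seeing the data, and 1 to 16. For the WT groups they were 417, and 910 by the likelihood-ratio test, 872 with no filter, 267 with the replicate block and 85 to 566 with a library left out. For the lines they were 2164 (16.4% of all genes tested) in the main fit, and their number under the alternatives is not given. The calls of the 8 genes between the lines under the alternatives thus have no share of all genes beside them. The replicate block changed no call of the 8 genes but that of Cd200r3 between the lines (adjusted p = 0.0755, edgeR), and the crossed block ended only that of Gata2 there (adjusted p = 0.0616). Same-numbered libraries correlated at -0.133 in the PARP1 line and 0.147 in the PARP2 line, so the numbers were not taken as pairs. Leaving out single libraries turned some directions, with log2 ranges of -0.27 to 0.21 for Mcpt8, -0.18 to 0.49 for Ms4a2, -0.25 to 0.19 for Gata2 and -0.42 to 0.038 for Prss34 in PARP1CKO, and of -1.48 to 0.12 for Cd200r3 and -0.29 to 0.15 for Ms4a2 in PARP2CKO. For the difference they were -1.42 to 0.18 for Cd200r3, -0.45 to 0.16 for Cpa3, -0.42 to 0.019 for Gata2, -0.44 to 0.035 for Mcpt8 and -0.55 to 0.11 for Ms4a2. With a library left out, the lone library of its group is assumed to vary like the other groups. The causes were not tested. Depth limits Fcer1a and Cd200r3 most, at 4 to 18 and 5 to 28 counts a library.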
